A study of Arabidopsis thaliana with 251 samples.

Results

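MEA (MEDEA, AT1G02580), FIS2 (AT2G35670), PHE1 (PHERES1, AT1G65330) and SDC (AT2G17690) are *Arabidopsis thaliana* genes known for control by imprinting or DNA methylation. They were examined in data from a screen for gene silencing at another such gene, FWA. They were chosen by identifier and make up 4 of the 37887 genes annotated on the 5 nuclear chromosomes. Each gene was examined in a window of its TAIR10 body and 1000 bp on either side. A peak is a stretch of the genome that a peak caller found enriched for immunoprecipitated DNA, and each library gave 1 list of peaks. The lists hold no read counts, so the depth behind a value is unknown, and the measures used here are whether a peak reached into the window, how many of its bases peaks covered, and the share of the peaks of the same list that had a lower fold enrichment.

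The study fused chromatin proteins to an artificial zinc finger (ZF) designed to bind the FWA promoter and introduced them into fwa, an epiallele of the Col-0 ecotype that has lost DNA methylation at FWA. Histone marks and RNA polymerase II (Pol II) were measured in leaves of plants 4 to 5 weeks old of fwa, of the lines ELF7-ZF, JMJ14-ZF, LHP1-ZF, MSI1-ZF, HDA6-ZF, HD2A-ZF, HD2B-ZF, HD2C-ZF and CPL2-ZF, of the control fusion EYFP-ZF, of Col-0, which has a methylated FWA, and of the T-DNA mutant elf7. The leaf fusion lines carried their transgene in the fwa background, driven by the UBQ10 promoter or by the promoter of the effector gene itself. Per the methods, ChIP-seq leaves of the ZF lines came from T2 plants that flowered early, while fwa flowers late. The fusion and the flowering state therefore cannot be told apart in these comparisons. FLAG ChIP-seq was done in unopened floral buds of plants with FLAG-tagged ELF7 or HD2A and of a line labelled TRB1-ZF. The methods describe a FLAG-ZF line, the zinc finger with its tag, and no TRB1 fusion, and whether the library labelled TRB1-ZF is that line could not be settled. The leaf lists were 14 of H3K27me3, 10 of H3K4me3, 4 each of H3K36me2 and H3K36me3, 17 of H3K9ac, 14 of H3K27ac, 10 of H3K14ac, 13 of H4K16ac and 18 of Pol II, and 40 of them came from fwa. There were 4 floral FLAG lists, for 108 lists in all. In each data set every fusion had its own fwa libraries, and Col-0 and elf7 were measured together in data sets 12 and 13. Leaf is a mixture of cell types, in which fewer cells carrying a mark and less of the mark in each cell cannot be told apart.

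MEA encodes a histone methyltransferase and FIS2 a zinc finger protein. Both are subunits of the Polycomb repressive complex 2 (PRC2) of the female gametophyte and endosperm, the complex that places trimethylation on lysine 27 of histone H3 (H3K27me3). Both are expressed in endosperm from the maternal copy, after the DNA glycosylase DEMETER has removed methylation from that copy. PHE1, a MADS-box transcription factor gene, is expressed mainly from the paternal copy, and its maternal copy is repressed by the PRC2 that contains MEA and FIS2. SDC encodes an F-box protein, has tandem repeats in its promoter, and is silenced in leaf by DNA methylation at those repeats. It is transcribed when the non-CG methyltransferases are lost. H3K27me3 marks genes held silent by Polycomb, whereas H3K4me3, histone acetylation, H3K36 methylation and Pol II mark transcribed genes.

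The sequence repeats of these loci are shown because the promoter repeats of SDC are where its methylation acts and because uniquely mapped reads, as used for these lists, are lost where a sequence occurs again. All sequences are from the RefSeq TAIR10.1 assembly and read 5′ to 3′. SDC (chr2:7682162-7684083, plus strand) had 6 copies in tandem of a 32-base unit at chr2:7681896-7682087, at positions -266 to -75 from its annotated start, and 88.1% of their bases were equal to those of the next copy. Capitals mark bases that differ from the previous copy.
SDC copy 1: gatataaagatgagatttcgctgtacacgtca
SDC copy 2: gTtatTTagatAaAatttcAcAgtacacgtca
SDC copy 3: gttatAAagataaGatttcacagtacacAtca
SDC copy 4: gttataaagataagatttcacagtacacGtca
SDC copy 5: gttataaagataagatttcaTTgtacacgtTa
SDC copy 6: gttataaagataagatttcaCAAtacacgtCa

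Copies 3 and 4 differed by 1 base and copies 1 and 2 by 7, so the copies were not exact. Of the words of 50 bases in the SDC window, 100% occurred nowhere else in the genome, the promoter repeats included, and reads of that length could be placed there. The shares were 96.2% for MEA, 99.8% for FIS2 and 97.7% for PHE1. The longest stretch found again elsewhere was 160 bases in MEA, downstream of the gene in no annotated gene (chr1:549903-550062, again at chr1:550266-550425), 55 bases in FIS2 and 120 bases in PHE1. That of FIS2 lay at chr2:14995183-14995237 inside its longest coding exon and was found again in the same exon at chr2:14995366-14995420. That of PHE1 (chr1:24266257-24267336, minus strand) lay in its coding sequence at chr1:24266495-24266614 and was found again in the neighbouring MADS-box gene PHE2 (AT1G65300).
FIS2, plus strand: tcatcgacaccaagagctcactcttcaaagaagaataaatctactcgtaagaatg
PHE1, minus strand: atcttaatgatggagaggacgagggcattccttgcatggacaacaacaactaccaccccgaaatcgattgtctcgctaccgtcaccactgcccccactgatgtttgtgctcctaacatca
The 1000 bases upstream held 15 CG sites in MEA, 17 in FIS2, 15 in PHE1 and 20 in SDC, against a median of 21 over 37885 genes.

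Before the comparisons, 4 of the leaf lists have to be set apart. The H3K27me3 lists of data set 14 held 1373 and 940 peaks in EYFP-ZF and 2199 and 1149 in fwa, while the 10 H3K27me3 lists of data sets 1 and 2 held 10949 to 14912. In every one of the 4 short lists peaks lay over 6 of 6 genes used as leaf markers (the small Rubisco subunit genes RBCS1A and RBCS2B, the chlorophyll-binding protein genes LHCB1.1, LHCB1.3 and LHCB2.1, and RCA, for Rubisco activase), whereas in data sets 1 and 2 a peak lay over 2 of these 6 in any list and over 0 in every list. Over all genes, a peak lay in all 4 short lists for 1.86% and in every list of data sets 1 and 2 for 17.8%. The H3K27me3 results are therefore given with and without data set 14. The other leaf lists held 10188 to 29961 peaks. Pol II peaks lay over 6 of 6 leaf markers in at least 1 list and over 4 in all 18, over 4 of 6 floral organ markers in at least 1 list and over 0 in all, and over 2 of 7 seed and endosperm markers in at least 1 list. Over all genes, a Pol II peak lay in at least 1 list for 66.1% and in all 18 for 23.8%. FWA had a Pol II peak in 6 of 6 fwa lists and in 0 of 2 Col-0 lists, as the labels of the lines call for.

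The 4 genes fell into different chromatin patterns. MEA, FIS2 and PHE1 had an H3K27me3 peak in every list of data sets 1 and 2, and SDC in none of the 14 H3K27me3 lists. MEA and PHE1 had no peak of Pol II, H3K4me3, H3K36me2, H3K36me3, H3K9ac, H3K27ac or H4K16ac in any list, while FIS2 and SDC had Pol II in 18 of 18. For SDC all of the covered bases, and for FIS2 most of those of Pol II and of the marks of transcribed genes, lay in the body of a gene on the opposite strand that reaches into the window.

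**Figure D1:**
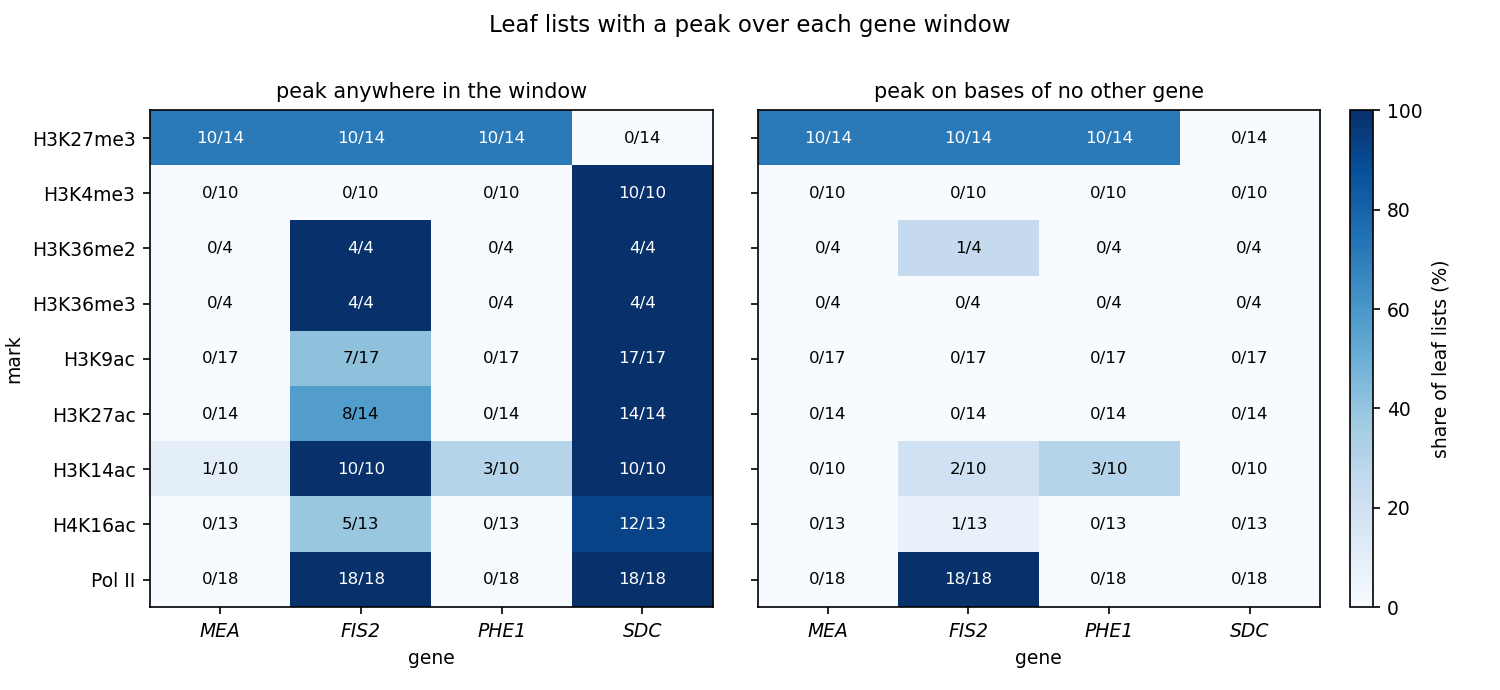
Leaf lists with a peak over each gene window, by mark (rows) and gene (columns), as lists with a peak out of all lists of the mark, with colour for that share in percent; the left panel counts peaks anywhere in the window and the right panel those on bases that belong to no other gene. On the right, H3K27me3 keeps 10 of 14 lists at MEA, FIS2 and PHE1, Pol II keeps 18 of 18 at FIS2, and SDC has 0 lists for every mark.

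H3K27me3 covered more bases of MEA, which has the longest window, than of the other members in every list of data sets 1 and 2. By mean share of the window PHE1 was above MEA in LHP1-ZF (60.5% against 53.3%) and MSI1-ZF (63.7% against 56.9%). In both lines that order held in data set 1 and was reversed in data set 2. MEA (chr1:544733-549202, plus strand, 4470 bases) had a peak in 10 of 10 lists of data sets 1 and 2 and in 0 of 4 of data set 14. Over all annotated genes a peak lay in the window in at least 1 list for 38.3% in data sets 1 and 2 and for 7.91% in data set 14, and in every list of data sets 1 and 2 for 17.8%. In data set 1, peaks covered 4728 of the 6470 window bases in fwa, 4737 in ELF7-ZF, 4601 in JMJ14-ZF, 3751 in LHP1-ZF and 4451 in MSI1-ZF. In data set 2, they covered 4121 bases in fwa, 3901 in ELF7-ZF, 4373 in JMJ14-ZF, 3152 in LHP1-ZF and 2918 in MSI1-ZF. LHP1-ZF was the lowest line in data set 1 and MSI1-ZF in data set 2, and ELF7-ZF and JMJ14-ZF lay above fwa in one data set and below it in the other. The base range covered in at least 5 of these 10 lists ran from 772 to 5060 bases from the start of the gene, that is over most of the body and past its end but not over the start. The highest fold enrichment over the window was 4.25 to 8.41, above that of 77.9% to 97.4% of the peaks of the same list.

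PHE1, of 1080 bases, was covered by H3K27me3 along its body and on both sides. In data set 1, peaks covered 1797 of 3080 window bases in fwa, 1754 in ELF7-ZF, 1521 in JMJ14-ZF, 2347 in LHP1-ZF and 2869 in MSI1-ZF. In data set 2, they covered 1216 bases in fwa, 815 in ELF7-ZF, 1272 in JMJ14-ZF, 1377 in LHP1-ZF and 1053 in MSI1-ZF. LHP1-ZF was above fwa in both data sets, MSI1-ZF was above it in data set 1 and below it in data set 2, and ELF7-ZF was below it in both. The highest fold was 2.88 to 7.64, above 29.0% to 96.4% of the peaks of the list. Of the covered bases, 7.48% lay in CYP96A3 (AT1G65340), a cytochrome P450 gene 798 bases upstream that shares 202 bases with the window.

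At FIS2 (chr2:14992565-14996756, plus strand, 4192 bases) H3K27me3 was narrower. In data set 1, peaks covered 1456 of 6192 window bases in fwa, 2443 in ELF7-ZF, 1519 in JMJ14-ZF, 1421 in LHP1-ZF and 959 in MSI1-ZF. In data set 2, they covered 673 bases in fwa, 931 in ELF7-ZF, 1112 in JMJ14-ZF, 692 in LHP1-ZF and 426 in MSI1-ZF. ELF7-ZF and JMJ14-ZF were above fwa in both data sets, and MSI1-ZF was below it in both. The bases covered in at least 5 of the 10 lists lay between 1927 and 3007 bases from the start, inside the longest coding exon (1829 to 3013 bases from the start, chr2:14994393-14995577), the exon that holds the repeated stretch printed above. The highest fold was 2.42 to 4.92, above 11.2% to 79.4% of the peaks of the list, and the peaks of FIS2 thus stood lower within their lists than those of MEA. None of the covered bases lay in a neighbouring gene.

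All 3 genes were covered more widely in data set 1 than in data set 2, in 5 of 5 lines each. The mean over lines was 4454 ± 410 bases (SD, n = 5 lines) in data set 1 against 3693 ± 629 in data set 2 for MEA, 1560 ± 541 against 766.8 ± 263 for FIS2, and 2058 ± 545 against 1147 ± 219 for PHE1. For FIS2 the range of data set 1 (959 to 2443) overlapped that of data set 2 (426 to 1112), and for PHE1 (1521 to 2869 against 815 to 1377) it did not. The data set coincides with the replicate number, and these values are given as a description without a test. The share of all genes with the same order or separation was not counted. Over the genes of this fit, libraries of the same data set deviated together (correlations 0.482 to 0.698), so the order is not read as a trait of these 3 genes.

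**Figure D2:**
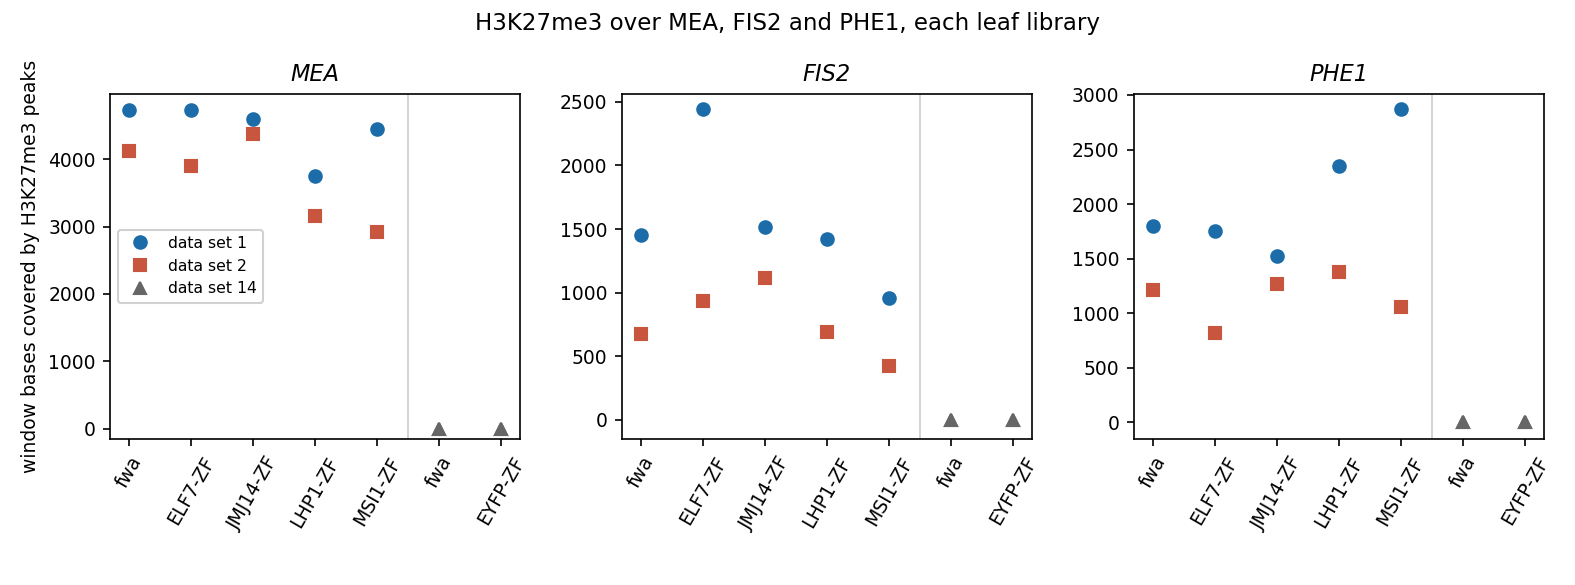
Window bases covered by H3K27me3 peaks over MEA, FIS2 and PHE1, with 1 point per leaf library, by line and data set. Data set 1 lies above data set 2 in every line, and the 4 libraries of data set 14, at 0 in each panel, are shown apart on the right.

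None of the H3K27me3 differences between a fusion and fwa passed the test. The share of each gene window covered by peaks was compared with limma across all genes that had a peak in at least 2 libraries of the fit, with Benjamini-Hochberg adjustment over all of them and a threshold of 0.05. The labels do not say that replicates came from separate plants, so the p-values measure the spread between these libraries. The covered share of MEA differed by -15.04 percentage points in LHP1-ZF from fwa (53.3% against 68.4%, SE 9.13, 95% interval -36.6 to 6.55, limma adjusted p = 0.855), and within data sets by -977 bases in data set 1 and -969 in data set 2. With the replicate block its SE was 5.50 and it did not pass either (limma adjusted p = 0.297). In MSI1-ZF it differed by -11.4 points (interval -33.0 to 10.2). For ELF7-ZF and JMJ14-ZF the differences at MEA were -1.63 and 0.966 points, each with an SE of 9.13. At PHE1 the difference was 11.5 points in LHP1-ZF (SE 20.9, interval -38.0 to 61.1) and 14.8 points in MSI1-ZF (interval -34.8 to 64.3), the widest intervals of the 60 tested. At FIS2 it was 10.1 points in ELF7-ZF (SE 9.44, interval -12.3 to 32.4) and -6.01 points in MSI1-ZF. Differences of these sizes between lines were not detected with 2 libraries a line. These SE values include the spread between data sets. With the replicate block the SE was 5.50 at MEA, 5.11 at FIS2 and 11.4 at PHE1, and no H3K27me3 difference passed there either. Of the 13029 genes tested, the comparison called 0.00768% for LHP1-ZF (1 gene) and 0% for each of ELF7-ZF, JMJ14-ZF and MSI1-ZF, and in data set 14 it called 0% of 1475 genes for EYFP-ZF, where no member had a peak to test.

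SDC had H3K27me3 in 0 of 14 lists and peaks of every other leaf mark. H3K4me3 was present in 10 of 10 lists (592 to 761 of 3922 window bases), H3K36me2 in 4 of 4 (458 to 1884), H3K36me3 in 4 of 4 (793 to 1079), H3K9ac in 17 of 17 (296 to 634), H3K27ac in 14 of 14 (388 to 837), H3K14ac in 10 of 10 (686 to 1392) and H4K16ac in 12 of 13 (0 to 942). Over all genes a peak lay in the window in at least 1 list for 64.8% (H3K4me3), 68.6% (H3K36me2), 61.9% (H3K36me3), 66.8% (H3K9ac), 68.6% (H3K27ac), 75.6% (H3K14ac) and 65.9% (H4K16ac). A peak lay there in every list of the mark for 53.0% (H3K4me3), 57.1% (H3K36me2), 53.8% (H3K36me3), 50.7% (H3K9ac), 51.2% (H3K27ac), 58.5% (H3K14ac) and 23.4% (H4K16ac). By a peak in at least 1 list, SDC was thus among the majority of genes for each of these marks, and MEA was outside it for all of them but H3K14ac.

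All of these peaks lay in one part of the SDC window. AT2G17695, a protein-coding gene on the minus strand, reaches into SDC from the far end and has 3 transcript models, of which the longest shares 1303 bases with the body of SDC, a shorter one 166 and the third 0. The coding sequence of SDC (chr2:7682818-7684083) lies wholly inside the longest of these models. Of the bases covered by leaf peaks in the SDC window, 100% lay in the body of AT2G17695, and the 619 bases of the SDC body outside it, the 1000 upstream bases and with them the 6 tandem copies printed above carried no peak in any leaf or FLAG list. H3K4me3, H3K9ac and H3K27ac lay past the end of SDC in every list, with 0 lists reaching its body. The reads carry no strand, so peaks in the shared bases cannot be given to SDC or to AT2G17695.

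Within the SDC body, H3K36me2, H3K14ac and Pol II were the marks present in most lists. H3K36me2 reached bases 620 to 1756, which only the longest model of AT2G17695 shares with SDC, in 4 of 4 lists (200 to 1033 bases), and Pol II did so in 18 of 18 (129 to 553). H3K14ac did so in 9 of 10 lists (0 to 611 bases) and had no peak on the remaining 166 body bases, so that it formed a patch, from base 624 at the earliest, over the first part of the SDC coding sequence (which begins at base 657) and apart from the one past the end of the gene. H4K16ac reached the same bases in 3 of 13 lists and H3K36me3 in 1 of 4.

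**Figure D3:**
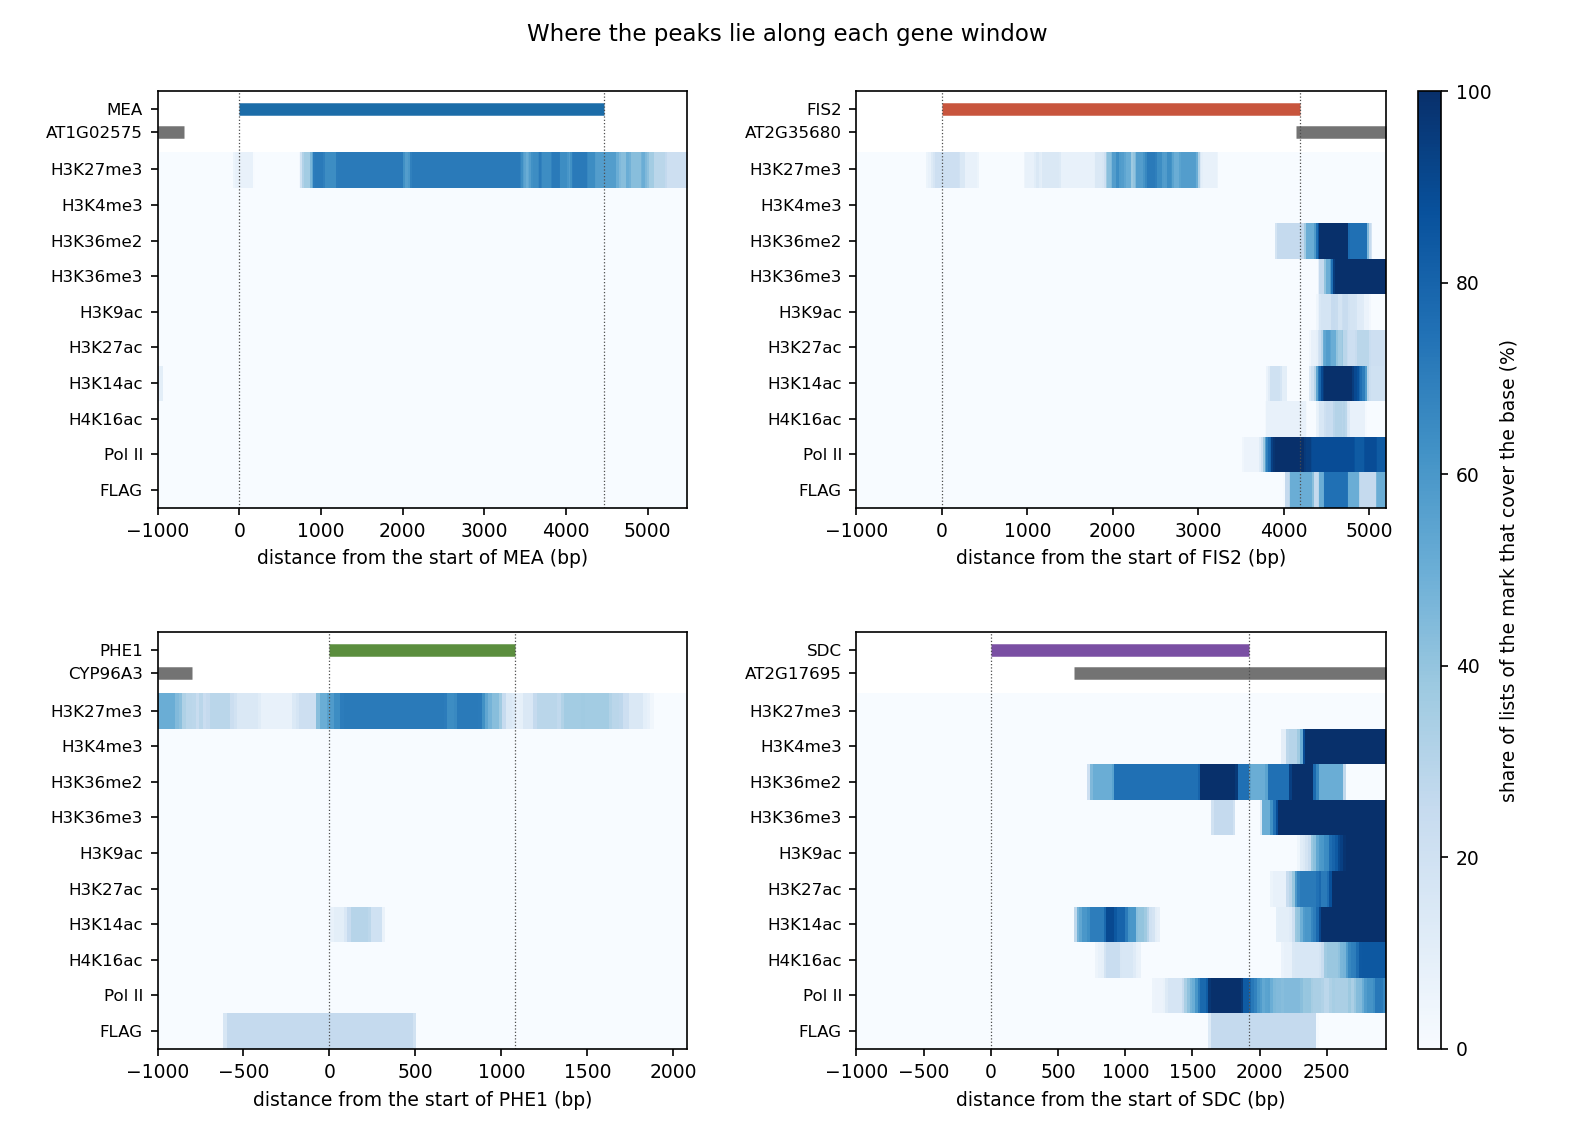
Share of the lists of each mark (in percent, colour) whose peaks cover each position of the 4 windows, against distance from the start of the gene in bp; bars above the rows show the member and the neighbouring gene. H3K27me3 covers most of the body of MEA (in most lists not its first bases), the body of PHE1 and the middle of FIS2, while the marks of transcribed genes lie in the AT2G35680 end of the FIS2 window and in the AT2G17695 part of the SDC window.

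H3K14ac over SDC gave the lowest unadjusted p of the 60 pairs. In data set 7, peaks covered 1119 and 1076 bases in fwa, 981 and 869 in HDA6-ZF and 903 and 686 in MSI1-ZF. Both fusions lay below fwa, and coverage was lower over genes at large as well. The median difference over all 26155 tested genes was -3.21 points in HDA6-ZF and -1.78 in MSI1-ZF. An unadjusted limma p under 0.05 was reached by 5379 genes in HDA6-ZF and by 4339 in MSI1-ZF. MSI1-ZF differed by -7.73 percentage points (20.3% against 27.98%, SE 2.53, 95% interval -14.2 to -1.29), which did not pass the threshold (limma adjusted p = 0.230), and HDA6-ZF by -4.398 points (interval -10.8 to 2.03, limma adjusted p = 0.367). The comparison of MSI1-ZF called 0.856% of 26155 genes and that of HDA6-ZF 0.0153%. In data set 15, the control EYFP-ZF lay below fwa too. Peaks covered 882 and 877 bases in EYFP-ZF and 883 and 1392 in fwa, a difference of -6.58 points (interval -20.0 to 6.85), and 0% of 25977 genes were called. AT2G17695, whose own window shares this H3K14ac, differed by -10.8 points in MSI1-ZF (limma adjusted p = 0.128) and by -7.86 points in HDA6-ZF (limma adjusted p = 0.190).

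The other marks of SDC passed no test either. In H3K36me2, peaks covered 1577 and 1884 bases in ELF7-ZF and 458 and 1717 in fwa, a difference of 16.4 points in which the fwa library of data set 14 was the low one (SE 12.6, interval -17.7 to 50.5, limma adjusted p = 1). With the replicate block its SE was 6.90 (limma adjusted p = 0.652). In H3K36me3, they covered 1079 and 832 bases against 905 and 793, and in H3K4me3 all lists of data sets 1 and 2 lay between 592 and 620 bases. H3K4me3 is the mark that JMJ14, a histone demethylase, removes, and the difference of JMJ14-ZF from fwa was 0.102 points (interval -2.49 to 2.69). H3K9ac differed by 0.166 points in MSI1-ZF, -0.140 in HDA6-ZF, 2.01 in HD2A-ZF, 0.748 in HD2B-ZF and 0.0850 in HD2C-ZF, proteins of histone deacetylase complexes or deacetylases themselves, with intervals that all included 0. HD2B-ZF and HD2C-ZF had 1 H3K9ac library each, which the fit assumes to vary like the other lines, so these values rest on no replicates of their own. H3K27ac differed by -2.03 points in HD2A-ZF, -2.52 in HD2B-ZF and -2.21 in HD2C-ZF, each with an SE of 3.10. With the replicate block the SE was 1.26 for each, and none passed (limma adjusted p = 0.976, 0.374 and 0.991). H4K16ac differed by -1.31, -0.663 and 1.21 points in the same lines.

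FIS2 meets the protein-coding gene AT2G35680 tail to tail. The genes share 44 bases and AT2G35680 takes up the last 1044 bases of the window. H3K36me2 and H3K36me3 were present over the FIS2 window in 4 of 4 lists each (583 to 856 and 608 to 779 bases) and H3K14ac in 10 of 10 (479 to 886), with 91.5%, 100% and 94.2% of the covered bases in AT2G35680. H3K27ac was present in 8 of 14 lists, H3K9ac in 7 of 17 and H4K16ac in 5 of 13, and H3K4me3 in 0 of 10. In data set 15 H3K27ac covered 675 and 545 bases in EYFP-ZF and 880 and 663 in fwa, whereas in data sets 3 to 6 it was at 0 in both fwa libraries of data set 3, at 0 and 205 in those of data set 4, and at 0 in each fusion of data set 3. It covered 163 bases in HD2A-ZF, 188 in HD2B-ZF and 239 in HD2C-ZF of data set 4, so the 4 libraries with a peak were all of that data set. Within the body of FIS2, H3K36me2 lay in 1 of 4 lists, H3K14ac in 2 of 10, H4K16ac in 1 of 13 and H3K9ac, H3K27ac and H3K36me3 in none.

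Acetylation was rare over the other members. H3K14ac over PHE1 was present in 3 of 10 lists, with 231 bases in 1 fwa library of data set 7, 216 in 1 fwa library of data set 15 and 196 in 1 HDA6-ZF library, and 0 in the other library of each. The peaks lay in the first 307 bases of the gene and had low folds (1.59 to 1.80). Over MEA, 1 of 10 H3K14ac lists had a peak, of 60 bases, all of them in AT1G02575, the neighbour upstream.

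Pol II, detected with an antibody to its serine-5-phosphorylated form, lay over FIS2 and SDC in 18 of 18 lists and over MEA and PHE1 in 0 of 18. A Pol II peak lay over the window in at least 1 list for 66.1% of all genes and in all 18 lists for 23.8%. At FIS2 peaks covered 422 to 1466 bases with a median of 1402.5, and 71.7% of these bases lay in AT2G35680. In data set 14 they covered 1421 and 1432 bases in EYFP-ZF and 1427 and 1446 in fwa. In data sets 10 and 11 they covered 1466 and 1388 bases in CPL2-ZF and 1412 and 1304 in fwa, and in data sets 8 and 9 1460 and 1456 in ELF7-ZF, 1394 and 422 in HD2A-ZF and 1339 and 555 in fwa. The values of 422 and 555, both from data set 9, stood apart from all others. The bases in the FIS2 body outside AT2G35680 numbered 260 to 620 in every list, at the 3′ end of the gene, and the start of FIS2 carried none.

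At SDC Pol II peaks covered 249 to 1608 bases with a median of 805.5. In data sets 10 and 11 they covered 1081 and 249 bases in CPL2-ZF and 1608 and 697 in fwa, the highest and lowest values of all 18 lists, and the difference was -12.4 points (SE 12.98, interval -49.1 to 24.2). In data sets 8 and 9 they covered 1239 and 855 bases in ELF7-ZF, 1449 and 649 in HD2A-ZF and 756 and 1180 in fwa. In data sets 12 and 13 they covered 1179 and 688 bases in elf7 and 925 and 1070 in Col-0. In data set 14 they covered 572 and 740 bases in EYFP-ZF and 523 and 643 in fwa. Within data sets, CPL2-ZF was below fwa in both, and with the replicate block, which pairs libraries of the same data set, its SE was 3.49 and the difference still did not pass (limma adjusted p = 0.340). ELF7-ZF, HD2A-ZF and elf7 were each above their control in one data set and below it in the other, and EYFP-ZF and fwa overlapped. The limma comparisons called 0% of all genes tested for Pol II in EYFP-ZF (19449 genes), CPL2-ZF (19586), elf7 (19061) and ELF7-ZF and HD2A-ZF (21369).

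Between fwa and Col-0, Pol II over SDC covered 901 ± 412 bases (SD, n = 6 libraries) against 998 ± 103 (n = 2, two-sided exact permutation p = 0.714), and over FIS2 1247 ± 343 against 1371 ± 57.3 (two-sided exact permutation p = 1). This test cannot give a p below 0.0714. No data set holds both lines, so the line and the data set cannot be told apart. MEA and PHE1 had no Pol II peak in either line.

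**Figure D4:**
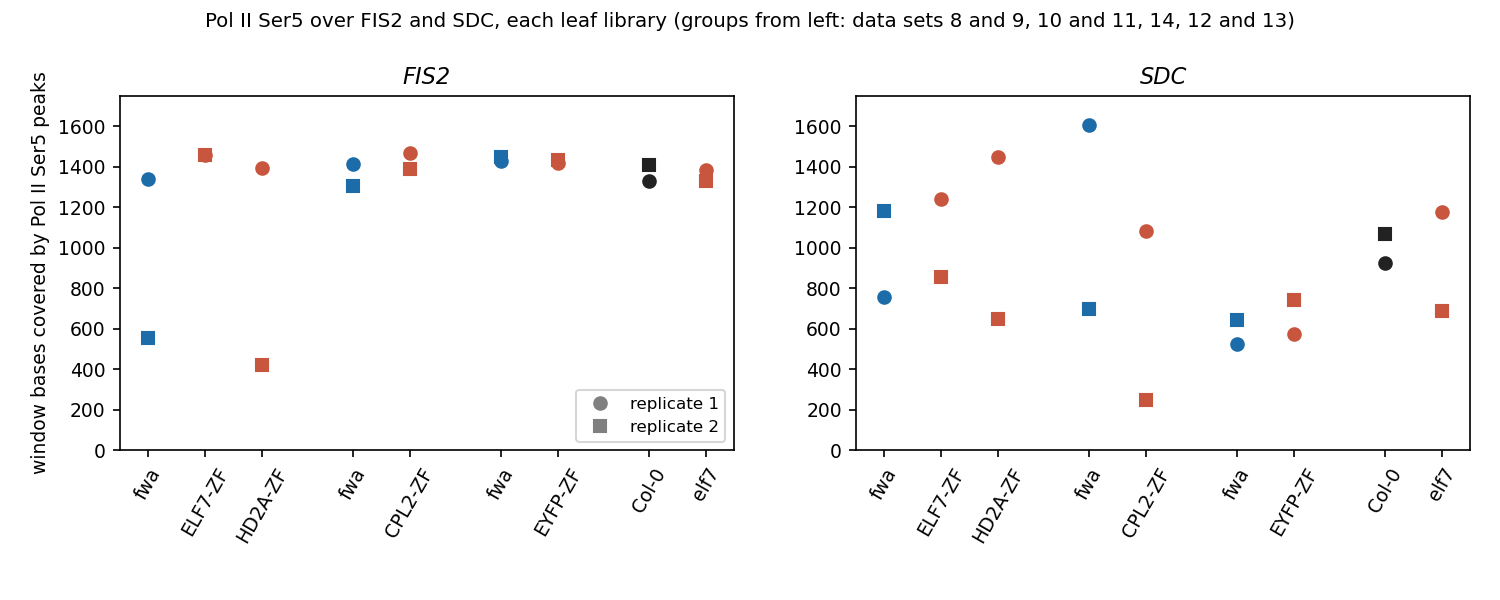
Window bases covered by Pol II peaks over FIS2 and SDC, with 1 point per leaf library, by data set and line (blue for fwa, black for Col-0, red for fusions and elf7). At FIS2 16 of 18 libraries lie between 1304 and 1466 bases and the HD2A-ZF and fwa libraries of data set 9 at 422 and 555; at SDC the values spread from 249 to 1608, with CPL2-ZF below fwa in both of its data sets.

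Over all marks, 60 of the 128 pairs of a member and a comparison could be tested, and 0 were called higher and 0 lower by limma. At an unadjusted p under 0.05 there was 1 of 60, the H3K14ac of SDC in MSI1-ZF, a comparison in which 4339 of 26155 genes had such a p. Most comparisons called few genes anywhere: H3K9ac called 0.427% of 24345 genes in HDA6-ZF and 4.64% in MSI1-ZF, 0.0623% of 22484 genes in HD2A-ZF, 0.0133% in HD2B-ZF and 0% in HD2C-ZF (1 library each), and H3K27ac called 0.0208% of 24034 genes in HD2A-ZF and 0% in HD2B-ZF and HD2C-ZF. The comparisons of H3K4me3 (ELF7-ZF, JMJ14-ZF and EYFP-ZF), H3K36me2 and H3K36me3 (ELF7-ZF), H4K16ac (EYFP-ZF and the 3 HD2 fusions) and H3K9ac and H3K27ac (EYFP-ZF) called 0%. These shares moved when libraries were left out. That of H3K4me3 in the control EYFP-ZF, 0% with all libraries, rose when either EYFP-ZF library was left out. For H3K9ac in data set 7, HDA6-ZF and MSI1-ZF together had 1 call without either MSI1-ZF library, 99 without fwa replicate 1, 176 without fwa replicate 2 and 721 to 738 without an HDA6-ZF library, and for H3K14ac 13 without MSI1-ZF replicate 1 and 0 without any other. The HD2 fusions together had 0 calls without any one of the fwa libraries for H3K9ac or H3K27ac, 0 without HD2A-ZF replicate 2 and 27 without HD2A-ZF replicate 1 for H3K9ac, and for H3K27ac 22 and 33 without HD2B-ZF replicates 1 and 2, 3 without either HD2A-ZF library, and 1 and 0 without HD2C-ZF replicates 1 and 2. The H3K27me3 comparisons had 124 calls without MSI1-ZF replicate 2 and 0 or 1 without any other library. At these shares 0 calls among 4 genes is near the background, and no result about the members.

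**Figure D5:**
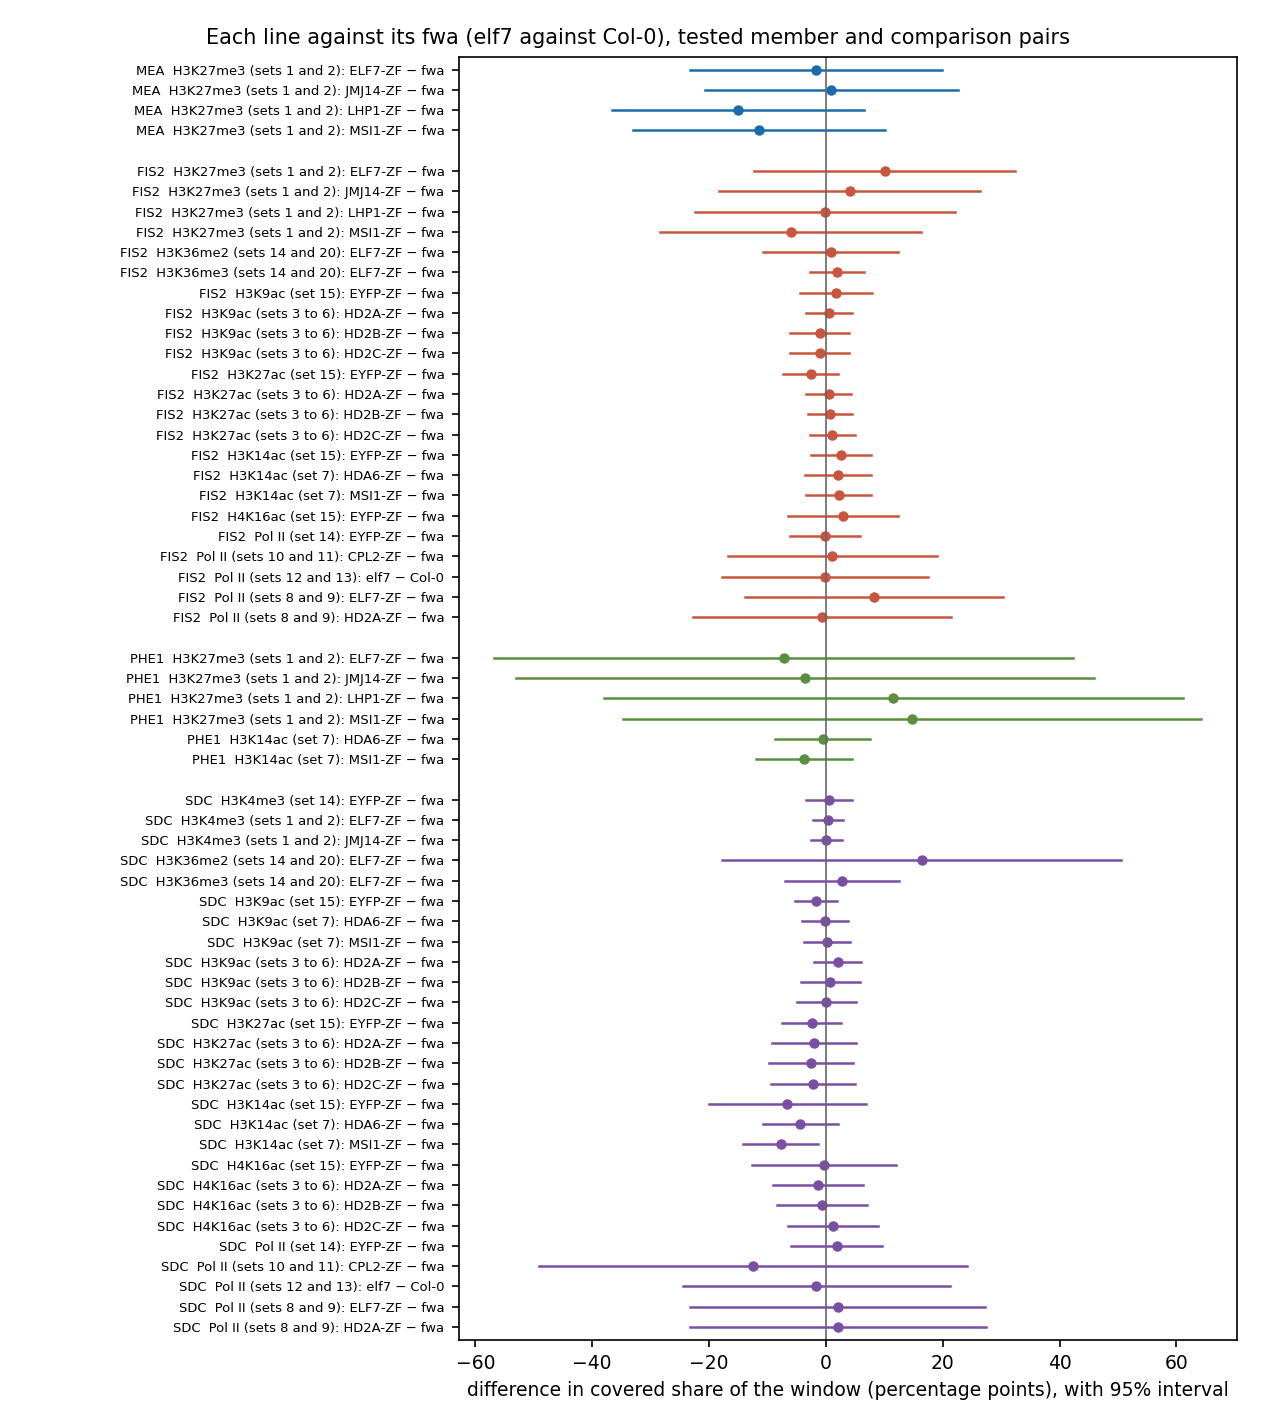
Difference in the covered share of the window between each fusion and its fwa, or between elf7 and Col-0, in percentage points, with 95% intervals from limma, for the 60 tested pairs. All intervals include 0 but that of H3K14ac over SDC in MSI1-ZF (-14.2 to -1.29), which did not pass the threshold after adjustment, and the intervals of H3K27me3 over PHE1 are the widest.

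In the floral FLAG lists, PHE1 had a peak in the library labelled TRB1-ZF. Whether that library is the zinc finger alone was not settled. The peak lay at chr1:24266842-24267949 and covered 1108 bases of the start of PHE1 and the sequence before it. In this list, of 22456 entries, a region with several summits has several entries. The peak at PHE1 had a fold of 6.73, above that of 91.0% of the entries. Its summit lay at -248 from the start. Over FWA, the intended target, the fold was 11.7, above 99.99% of the peaks. SDC had a peak of 3.05-fold, above 50.04%, that covered 791 bases in the AT2G17695 part of the window, FIS2 a peak of 2.36-fold, above 24.6%, with 342 bases in AT2G35680, and MEA had none. A peak of this list lay over the window of 56.4% of all genes, so that 3 of 4 members is near the background. Only 1 such library was analysed here and these values have no replicate.

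The zinc finger was designed to bind the FWA promoter, where a stretch of 38 bases occurs at chr4:13038249-13038286 and again at chr4:13038294-13038331. That stretch and the 121 bases around the PHE1 summit (chr1:24267524-24267644, minus strand) are shown to compare the target with this site. The capital letter in the PHE1 sequence marks the summit.
FWA repeat, plus strand: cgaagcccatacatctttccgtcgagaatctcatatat
PHE1 summit: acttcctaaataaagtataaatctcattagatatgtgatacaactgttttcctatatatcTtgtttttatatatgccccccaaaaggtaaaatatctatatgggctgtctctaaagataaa
The longest runs of bases that the FWA repeat shares with the PHE1 summit region, on either strand, were 2 runs of 8 bases, AGCCCATA (TATGGGCT on the other strand) and AATCTCAT (ATGAGATT). AGCCCATA was found in 1.45% of the 19986 regions of 121 bases around the summits of that list, in 2.05% of the 6574 of them with at least 4-fold enrichment, in 0.253% of 984678 stretches of the same length tiled over the genome, and at the same distance from the start in 0.417% of all genes. AATCTCAT was found in 0.946% of the regions, in 1.004% of those with at least 4-fold enrichment, in 1.05% of the tiled stretches and in 1.13% of genes at that distance. The runs shared by FIS2 (GCCCATA, in 3.21% of the regions) and by SDC (ATACAT, in 15.1%, and CATCTT, in 28.7%) were shorter. A shared run is a description of the letters and was not tested as a binding site. The 121 bases at PHE1 held 0 CG sites.

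FLAG-tagged ELF7, a subunit of the PAF1 complex that travels with Pol II, had a peak over the FIS2 window in both lists (1173 bases in replicate 1 and 792 in replicate 2, 89.8% of them in AT2G35680) and over MEA, PHE1 and SDC in neither. The peak of replicate 2 with the highest fold (3.73, above 76.8% of that list) lay wholly inside AT2G35680 at chr2:14997648-14998947. Replicate 1 lists positions only. A peak lay over the window of 50.3% of all genes in replicate 1 and of 37.4% in replicate 2. SDC, with Pol II in every leaf list, had no ELF7 peak in these floral lists. FLAG-tagged HD2A, a plant-specific histone deacetylase, had 415 peaks in its list, over 1.65% of all genes and over none of the members.

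Other genes of the same pathways were described by lists of their pathways and tissues. Of 14 other imprinted genes, 11 had an H3K27me3 peak in at least 1 list of data sets 1 and 2 and 9 in all 10, against 38.3% and 17.8% of all genes. PHE2, the neighbour and relative of PHE1, was covered over 508 to 2089 bases, HDG3, a homeodomain gene related to FWA, over 3554 to 4488, and VIM5, a relative of the methylation readers of the VIM family, over 4113 to 5012. YUC10, an auxin biosynthesis gene, was covered over 1160 to 2480 bases and SUVH7, a relative of the histone methyltransferase KYP, over 981 to 1996. FH5 (a formin gene), AGL36 (a MADS-box gene) and MPC had none, and FH5 had Pol II in 18 of 18 lists. FWA itself had H3K27me3 in 3 of 10 lists. In data set 14 a peak lay over 3 of the 14 genes in at least 1 list and over 0 in all 4, against 7.91% and 1.86% of all genes.

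The subunits and enzymes had H3K27me3 less often than the imprinted genes. Over all genes, H3K27me3 lay in at least 1 list of data sets 1 and 2 for 38.3% and in all 10 for 17.8%. H3K4me3 lay in all 10 of its lists for 53.0% of all genes, so that this state is common. Of 6 PRC2 subunit genes of the sporophyte (FIE, MSI1, CLF, SWN, EMF2 and VRN2), 1 had H3K27me3 in at least 1 list of data sets 1 and 2 and 0 in all, while 6 had H3K4me3 in all 10 lists. Of 7 genes of DNA methylation and demethylation (MET1, CMT3, DRM2, DDM1, KYP, DME and ROS1), 3 had H3K27me3 in at least 1 list and 0 in all, and 7 had H3K4me3 in all 10 lists. Floral organ markers had H3K27me3 in all 10 lists for 6 of 6 genes and seed and endosperm markers for 6 of 7. In every comparison, 0 genes of these lists were called by limma. The comparisons called 0% to 4.64% of all genes tested. Not every listed gene could be tested (for H3K27me3 in LHP1-ZF, 1 of the 6 PRC2 genes). At these shares 0 calls is near the background, and no result about the lists.

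For each member the genes most alike in covered share were found over all leaf lists, by the mean absolute difference in the percent of the window covered. For MEA these were AT5G00345 (0.281 points), AT3G49340 (0.303) and CLV3 (0.350), the gene of a stem cell signalling peptide. Each had H3K27me3 in 10 lists and no other mark. The median was 17.5 over the 33793 genes compared. As for the other members, these were genes with a peak in any leaf list and a window apart from that of the member. For PHE1 they were AT1G62225 (0.763), AT5G52710 (0.770) and AT3G47170 (0.814), against a median of 16.3. For FIS2 they were AT1G14730 (2.94), TLP1 (3.69) and BAN (4.10), a gene of proanthocyanidin synthesis, against 12.6, and all 3 had Pol II in 18 lists beside H3K27me3 in 9 or 10. For SDC they were AT4G11410 (4.01), AT3G63320 (4.15) and AT5G60430 (4.34), against 13.5, all without H3K27me3. The likeness is a description over lists that share lines and data sets.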

How the data were processed

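Deposited peak lists of ChIP-seq libraries were used. Per the labels and the methods, the authors trimmed reads, aligned them to TAIR10 with Bowtie2 2.1.0 (1 unique site, 0 mismatches) and took out duplicate reads with SAMtools 1.9. MACS2 2.1.1 gave the peaks. The methods state fwa as the control for FLAG-ZF and do not name the library labelled TRB1-ZF. Replicates were not pooled. The lists deposited by the authors give each peak its fold enrichment (a ratio), the −log10 of its p and q and a score, of which the fold and the −log10 q were used, and other positional columns. 2 of the 108 lists give positions only. They hold no read counts, so no interval for counting error was given. The 28 bisulfite amplicon files cover FWA and were not used, and RNA-seq, H3 and control FLAG libraries were not analysed here.

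Peaks (1824036 on the nuclear chromosomes, 0 past a chromosome end) were intersected with gene windows of the RefSeq TAIR10.1 annotation. The percent of each window covered was fitted with limma 3.58.1 (R 4.3.3, trend, two-sided, Benjamini-Hochberg over all genes with a peak in at least 2 libraries of the fit, threshold 0.05), in 19 fits and 32 comparisons, with all lines of an experiment in 1 fit. The fit was tested on simulated data. Pol II in fwa and Col-0 was compared by an exact permutation test. Named genes were the 4 members, FWA, genes reaching into a member window, listed genes past the threshold (0) and the 3 genes most alike to each member. Listed genes given beside these were chosen after their values were seen. Members and lists were chosen with earlier results of these data known. The alternatives were other windows, fold and q minimums, a larger overlap, the replicate block, an arcsine scale, a lower filter and libraries left out. Replicate numbers coincide with the data set in data sets 1 and 2, 3 to 6, 8 and 9, 10 and 11, 12 and 13, and 14 and 20, which pairs those libraries. Same-numbered libraries there correlated in their deviations from the line means by 0.482 to 0.698 for H3K27me3 and by 0.419 to 0.607 for Pol II.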

Additional observations from a re-analysis of the deposited data

Results flagged for a closer look

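Of 8 groups of 4 to 10 libraries examined, 2 held a library far from the others of its group. For values that vary continuously, chance gives about 1 in 20 groups. The groups of MEA and PHE1 had 0 covered bases in every library, so no library in them was able to stand apart. The 2 of 8 groups are therefore not compared with that rate. H3K27ac over FIS2 covered 205 bases in 1 of the 4 fwa libraries of data sets 3 to 6 and 0 in the other 3. With the others at 0 any peak meets that mark, so the chance rate does not apply, and the fusions of data set 4 had peaks as well (163, 188 and 239 bases). Pol II over FIS2 covered 555 bases in the fwa library of data set 9, while the other 5 fwa libraries lay between 1304 and 1446. The HD2A-ZF library of data set 9 was low as well (422 bases), and the ELF7-ZF library of that data set was not (1456).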

How the results depend on the processing

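In every alternative 0 of the pairs of a member and a comparison were called, so no called value existed whose change could be followed. With the replicate block 0 of 60 pairs were called (3 at an unadjusted p under 0.05, namely MEA H3K27me3 in LHP1-ZF, SDC H3K14ac in MSI1-ZF and SDC Pol II in CPL2-ZF, smallest adjusted p = 0.221, limma), and the block moved the calls over all genes from 1485 to 626 of 670972. In data sets 7, 14 and 15, where the libraries share only a number, same-numbered libraries correlated by -0.188 to 0.0767, and pairing the numbers crosswise in data set 14 (chosen after seeing the data) called 0 genes. The smallest adjusted p ran from 0.122 (2000 bp on either side) to 0.305 (gene body alone) over the window, fold, q, block, scale and filter alternatives. Without replicate 1 of every line 0 of 6 pairs were called and without replicate 2 0 of 9, in the fits that kept residual degrees of freedom, and in the fits without 1 library each (chosen after seeing the data) 0 of 395.

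The Pol II difference of fwa from Col-0, -123 bases at FIS2 and -96.3 at SDC, became 21 and 40.8 bases in the gene body alone. Without 1 library each it ran from -163.8 to 15.1 at FIS2 (15.1 without fwa replicate 2 of data set 9) and from -237.7 to -20.7 at SDC.

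Counts of lists with a peak moved as follows. In the gene body alone FIS2 had H3K36me2 in 1 list, H3K14ac in 2, H4K16ac in 1 and H3K36me3, H3K9ac and H3K27ac in 0, SDC had H3K36me3 in 1, H4K16ac in 3 and H3K4me3, H3K9ac and H3K27ac in 0, and MEA had H3K14ac in 0. With 500 bp SDC had H3K9ac in 9 and H4K16ac in 4, and MEA H3K14ac in 0. With 2000 bp FIS2 had H3K9ac in 17, H3K27ac in 14 and H4K16ac in 12, and MEA H3K14ac in 9. With peaks of at least 2-fold FIS2 had H3K9ac in 2 and H3K14ac in 6, and with a −log10 q of at least 5 H3K9ac in 0, H3K27ac in 5 and H4K16ac in 1, and in both PHE1 and MEA had H3K14ac in 0. With an overlap of 200 bp FIS2 had H3K9ac in 3 and MEA H3K14ac in 0. With the bases of neighbouring genes left out (chosen after seeing the data) FIS2 had H3K36me2 in 1, H3K14ac in 2, H4K16ac in 1 and H3K36me3, H3K9ac and H3K27ac in 0, MEA had H3K14ac in 0, and SDC had 0 for H3K4me3, H3K36me2, H3K36me3, H3K9ac, H3K27ac, H3K14ac, H4K16ac and Pol II. H3K27me3 was in 10 lists of MEA, FIS2 and PHE1 under each of these, except in 11 of MEA with 2000 bp and in 9 of FIS2 with the q minimum, and the other 236 values stayed within 1.5 times or kept their side of the threshold. The causes were not tested.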
